A study of Mus musculus with 2 samples.

Results

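The levels of 10 genes known from meiosis were read in single nuclei of the mouse hippocampus, in tissue of animals that carry a conditional deletion of Stra8. The genes were chosen by symbol, with earlier results of these data known, as meiotic genes read in these nuclei, and all 10 were found once each among the 32285 genes of the deposited count tables. They are Sycp2, Sycp3, Smc1b, Mei4, Mei1, Dmc1, Msh4, Dazl, Meioc and Ythdc2. There were 2 libraries of nuclear RNA, a male and a female one, from hippocampus dissected at 3 months of age. Both groups carry the genotype Stra8L/- with Nestin-Cre, a transgene that expresses the Cre recombinase in neural progenitors and hence in the neurons, astrocytes and oligodendrocyte lineage that descend from them, while microglia and blood vessels descend from other cells. The labels do not state which exons are removed or how many animals went into a library. No library of another genotype was analysed here, so the levels cannot be set against mice with intact Stra8. Each group being a single library, values are given with counting intervals and without tests, and an effect of sex cannot be told apart from one of animal, dissection or library.

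Meiosis is the pair of divisions by which germ cells become haploid, and its early genes are best known from testis and fetal ovary. STRA8, together with MEIOSIN, is the transcription factor that switches many of them on. In most somatic cells such genes are held down, in part by DNA methylation and by a repressor complex that contains E2F6, MGA and MAX. The meiotic genes serve successive steps. Cohesins and axis proteins such as SMC1B, SYCP2 and SYCP3 build the chromosome core, MEI4 and MEI1 are needed for the programmed DNA breaks, DMC1 carries out strand exchange with the homologous chromosome, and MSH4 protects the joints that become crossovers. DAZL, MEIOC and YTHDC2 bind RNA or associate with it and govern the entry into meiosis.

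The male library held 103262825 unique molecular identifiers (UMIs, tags by which copies of 1 molecule are counted once) in 16174 barcodes, and the female library 108286856 in 20150. After filtering, 13988 male nuclei with a median of 4358.5 UMIs and 17085 female nuclei with a median of 2676 UMIs were kept. The libraries shared 80 barcodes among the kept nuclei. Nuclei were grouped by clustering that left out the 10 genes, and each cluster was named from marker genes, so that every class name stands for nuclei resembling that cell type. The 9 main classes, each with at least 200 nuclei in both libraries, had 4 to 8 of their 8 markers over 2-fold higher than in the other nuclei of both libraries. Nuclei in clusters that took no name made up 5.51% of the male and 28.1% of the female library, and the largest such cluster, with 78 male and 3014 female nuclei, was led by Actb, hemoglobin and mitochondrial genes.

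Stra8 itself gave 2 male and 4 female UMIs, each in a different nucleus. These are levels of 0.025 and 0.0454 CPM (UMIs of a gene scaled to a common total of UMIs, used for all levels here), with 95% exact Poisson intervals of 0.00302 to 0.0902 and 0.0124 to 0.116. These intervals, like all others here, cover counting error only. A 3' tag does not show whether the deleted part of the gene was present.

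The promoters of 9 of the 10 genes, as RefSeq gives them for GRCm38.p6, were searched for 3 motifs on both strands. The window ran from 250 bases before the gene start to 50 after it. The E-box CACGTG, bound by MGA with MAX, was present in the promoter of Sycp3 alone, at 2 positions. The core GCGGGA, bound by E2F6, was present in 4 of the 9, those of Sycp3, Dmc1, Smc1b and Meioc. The motif CNCCTCAG, bound by STRA8 with MEIOSIN, was present in that of Dazl alone. Of all 32817 promoters of this length, 7.15% held the E-box, 20% the E2F6 core and 7.94% the STRA8 motif. A match is a description of letters, not a binding site. For Mei1, Msh4 and Meioc the RefSeq start lies inside the longer gene span of the GENCODE annotation. The promoters below are those of Sycp2 and Sycp3, whose levels ran most alike across classes, of Mei4, which had the sharpest contrast between neuron classes, and of Dmc1 and Dazl, which hold motifs. Motif matches are in capitals, on whichever strand they lie, and every sequence reads in the direction of the gene.
Sycp2 (chr2:178407609-178407908, minus strand): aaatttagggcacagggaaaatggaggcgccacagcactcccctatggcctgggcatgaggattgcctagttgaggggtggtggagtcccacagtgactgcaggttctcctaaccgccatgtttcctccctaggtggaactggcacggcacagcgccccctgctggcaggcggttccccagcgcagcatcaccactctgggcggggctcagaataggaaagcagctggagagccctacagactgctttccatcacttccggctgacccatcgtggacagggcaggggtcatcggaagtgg
Sycp3 (chr10:88459337-88459636, plus strand): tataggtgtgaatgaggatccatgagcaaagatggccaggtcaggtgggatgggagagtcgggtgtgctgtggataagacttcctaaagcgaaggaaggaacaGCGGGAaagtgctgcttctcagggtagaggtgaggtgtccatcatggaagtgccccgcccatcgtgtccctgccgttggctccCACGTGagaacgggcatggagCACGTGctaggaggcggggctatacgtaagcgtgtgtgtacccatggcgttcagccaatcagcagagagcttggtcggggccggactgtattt
Mei4 (chr9:81863420-81863719, plus strand): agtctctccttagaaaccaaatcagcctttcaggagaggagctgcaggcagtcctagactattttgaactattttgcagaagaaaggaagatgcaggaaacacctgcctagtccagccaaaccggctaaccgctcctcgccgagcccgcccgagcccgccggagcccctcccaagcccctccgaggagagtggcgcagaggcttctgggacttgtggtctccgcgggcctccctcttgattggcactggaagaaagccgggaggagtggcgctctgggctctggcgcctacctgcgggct
Dmc1 (chr15:79605060-79605359, minus strand): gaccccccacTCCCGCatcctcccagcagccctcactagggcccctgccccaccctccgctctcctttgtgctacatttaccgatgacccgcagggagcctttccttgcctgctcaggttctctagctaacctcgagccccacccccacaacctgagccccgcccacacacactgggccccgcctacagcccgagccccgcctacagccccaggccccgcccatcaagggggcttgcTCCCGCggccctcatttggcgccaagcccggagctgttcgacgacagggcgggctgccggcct
Dazl (chr17:50293571-50293870, minus strand): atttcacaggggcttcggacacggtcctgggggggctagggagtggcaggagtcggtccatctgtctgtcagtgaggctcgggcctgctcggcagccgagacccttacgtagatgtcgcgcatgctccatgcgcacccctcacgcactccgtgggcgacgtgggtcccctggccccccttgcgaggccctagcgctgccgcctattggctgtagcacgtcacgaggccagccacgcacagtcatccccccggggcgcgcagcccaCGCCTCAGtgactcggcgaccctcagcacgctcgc
In Sycp3 the E-boxes begin 64 and 43 bases before the gene start and the E2F6 core 147 bases before it. In Dmc1 the E2F6 cores lie on the opposite strand, so that they read TCCCGC in the line above, and begin 240 and 13 bases before the start. The STRA8 motif of Dazl begins 15 bases after the start. The letters of the 3 motifs do not occur in the windows of Sycp2 and Mei4. The ratio of observed to expected CpG was 0.795 for Dazl, 0.666 for Sycp3, 0.58 for Mei4, 0.571 for Dmc1 and 0.363 for Sycp2, against a median of 0.383 over all promoters. It was highest for Smc1b, at 1.08, a value above that of 97.5% of all promoters.

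All 10 genes gave at least 50 UMIs over both libraries, from 203 for Meioc to 12125 for Ythdc2. So did 19519 of all 32285 genes, and the 10 were chosen as genes read in these nuclei, so this count is a description. By mean CPM, 50.3% of all genes stood at or below Meioc, 53.3% at or below Msh4 and 91.8% at or below Ythdc2. Over all kept nuclei, 4 of them lay above 10 CPM in both libraries (Ythdc2, Sycp2, Sycp3 and Mei4) and the other 6 below. A UMI of at least 1 of the 10 was present in 52.6% of male and 45.2% of female nuclei. In microglia, where Sycp2, Sycp3 and Mei4 were low, that share was 12.2% and 10.3% at median depths of 1542 and 1598 UMIs. With every nucleus thinned to 1000 UMIs, the share in microglia was 8.45% and 7.14%, or 64 and 46 nuclei. Ythdc2 was read in 47 male and 20 female thinned microglia. Thinned in the same way, the share was 24.6% and 31.5% in oligodendrocyte precursors and 15.3% and 15% in granule neurons of the dentate gyrus. Empty droplets were not analysed here, so the part of free RNA in these shares was not tested. Because long genes can offer more nuclear RNA to capture, levels were also given per 10 kb of gene span in the GENCODE vM21 annotation of mm10. Whether level rose with span in these libraries was not tested. On that scale Sycp3 was highest, at 21.4 CPM per 10 kb in the male library and 18.5 in the female, followed by Ythdc2 at 12.6 and 10.7 and Sycp2 at 8.49 and 11.5. Dazl followed at 2.7 and 2.32, and Msh4 was lowest at 0.374 and 0.339. Mei4, whose span of 342 kb is the longest of the 10, stood at 0.786 and 0.949. The sources used here do not say whether intronic reads were counted, so a level can include unspliced RNA.

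A gene was called higher in a class when its CPM there was over 2-fold that of all other nuclei in both libraries, with 5 CPM added to each side. By this rule 2 of the 10 genes, Sycp2 and Mei4, were higher in at least 1 main class, while 24.8% of the 19519 genes with at least 50 UMIs were. Lower calls in at least 1 class were made for 3 of the 10, Sycp2, Sycp3 and Mei4, against 16.8% of all genes. Against these shares, and with 10 genes, neither count is read as particular to the meiotic genes. With doublets kept, Mei4 was the 1 gene called higher, while 18.5% of all genes were. With 1 CPM added in place of 5, Mei1 and Dazl were called as well, beside 35.9% of all genes. The count of genes called lower was 1 with doublets kept (Mei4) and 5 with 1 CPM added, where Mei1 and Dmc1 joined the 3. The share of all genes called lower in these settings is not given here, so these counts are descriptions.

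**Figure D1:**
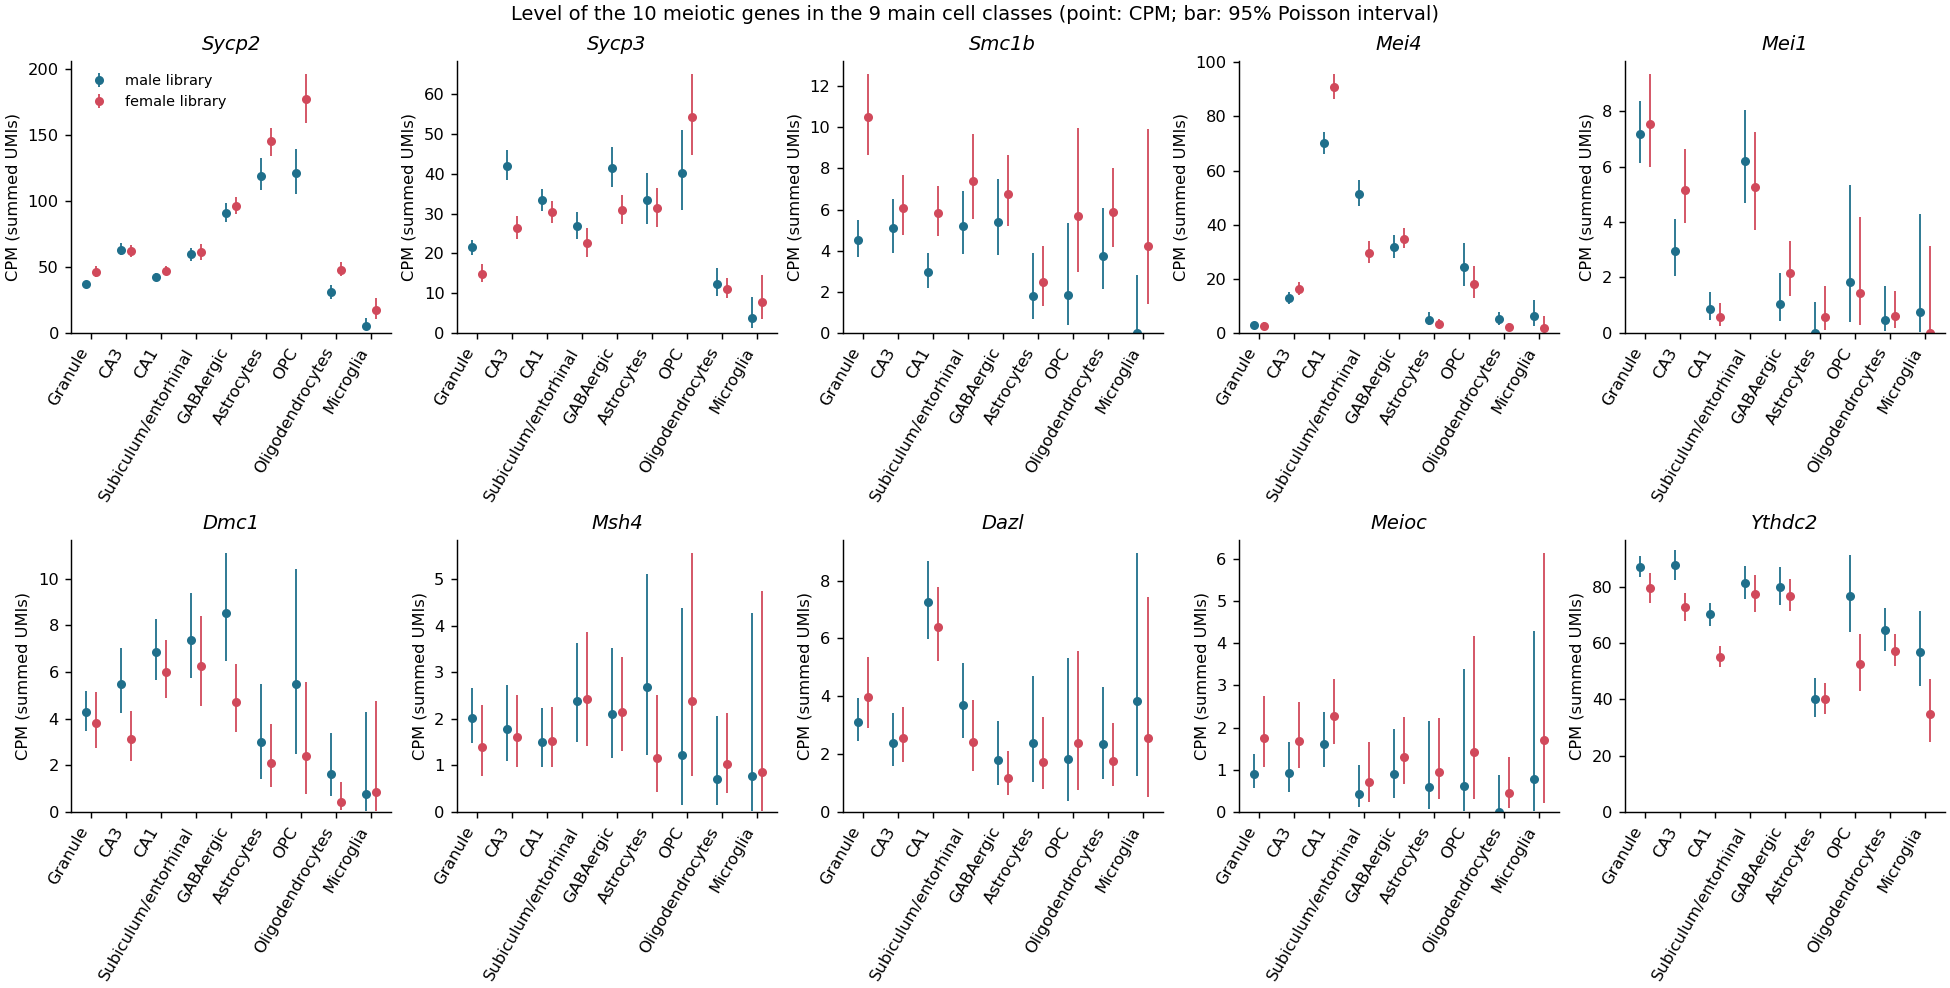
Level of each of the 10 genes in the 9 main cell classes, in CPM of summed UMIs, with a point per library (blue, male; red, female) and 95% exact Poisson intervals as bars; each panel has its own vertical scale from 0. Mei4 peaks in CA1 at 70.2 and 90.9 CPM and lies under 3 CPM in granule neurons, while Ythdc2 spans little more than 2-fold in the male library, from 40.3 to 87.7 CPM.

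Sycp2, on chromosome 2 (chr2:178345293-178407685, mm10, minus strand), encodes a protein of the chromosome axis that becomes the lateral element of the synaptonemal complex. It was read at 53.0 CPM in the male library and 71.6 in the female, in 2939 of 13988 and 3916 of 17085 nuclei. Its level was highest in oligodendrocyte precursors, at 121 CPM (interval 105 to 139) in the male library and 177 (159 to 196) in the female, and next in astrocytes, at 119 (108 to 132) and 145 (134 to 155). Both glial classes stood above all 5 neuron classes, of which GABAergic interneurons were highest at 90.6 and 96.1 CPM. Oligodendrocytes, the mature cells of the precursor lineage, had 30.7 and 47.9 CPM.

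Microglia had the lowest Sycp2 level of the main classes, 5.38 CPM (2.16 to 11.1) and 17.0 (10.4 to 26.3). The log2 ratio of precursors to all other nuclei was 1.16 (0.95 to 1.35) in the male library and 1.29 (1.14 to 1.44) in the female, and that of astrocytes 1.18 (1.03 to 1.32) and 1.05 (0.95 to 1.16). Over all genes, 2.65% were called higher in oligodendrocyte precursors and 6.96% in astrocytes. With every nucleus thinned to 1000 UMIs, a Sycp2 UMI remained in 13.0% of male and 17.8% of female precursors, but in 0.661% and 2.48% of microglia. Unthinned, the shares were 32.0% and 45.1% of precursors at a median depth of 2888.5 and 2965 UMIs, and 0.883% and 2.40% of microglia at 1542 and 1598. The class difference in Sycp2 was thus present at equal depth and in both libraries. A few thalamic or habenular neurons, captured in the female library alone, had a similarly high level of 149 CPM over 148 nuclei.

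Sycp3 (chr10:88459569-88473236, plus strand) encodes the partner of SYCP2 in the axis. It was read at 29.2 CPM in the male library and 25.3 in the female, in 1855 and 1734 nuclei. Oligodendrocyte precursors were again highest on average, at 40.1 CPM (31.0 to 51) and 54.3 (44.8 to 65.2), but in the male library CA3 pyramidal neurons with 42.1 (38.5 to 46.0) and GABAergic interneurons with 41.5 (36.8 to 46.7) overlapped them. Microglia were lowest at 3.84 and 7.65 CPM, and oligodendrocytes next at 12.4 and 11.0. The log2 ratio of microglia to the other nuclei was -1.97 (-2.47 to -1.31) and -1.27 (-1.85 to -0.64), a lower call that 7.87% of all genes shared. This call was lost with doublets kept and with nuclei thinned to 1000 UMIs. Thinned in this way, Sycp3 was instead called higher in at least 1 main class, as were 27% of all genes.

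Over the 18 points of 9 classes in 2 libraries, Sycp2 and Sycp3 had a Pearson r of 0.88 on the scale of log2(CPM + 1), the highest of any pair among the 10 genes; points of 1 library share its depth, and the value is a description. Both were low in microglia and high in precursors. They parted in astrocytes, where Sycp2 was over 2-fold above the other nuclei and Sycp3 had log2 ratios of 0.18 (-0.07 to 0.42) and 0.28 (0.08 to 0.48). Sycp3 lies with its whole span of 13.7 kb inside Chpt1, a choline phosphotransferase gene on the opposite strand. Chpt1 was read at 86.4 and 85.7 CPM and was highest in astrocytes at 144 and 151. Oligodendrocyte precursors, the highest class of Sycp3 on average, came next for Chpt1 at 136 and 133 CPM. Microglia, the lowest class of Sycp3, had 74.5 and 52.7 CPM of Chpt1. Reads of the pair can be told apart only by strand, and the part of Chpt1 in the Sycp3 level was not tested. The nearest protein-coding gene upstream of Sycp2 on its strand, Ppp1r3d, lies 3.52 kb away and stood at 1.86 and 1.87 CPM. Ppp1r3d was highest in astrocytes, at 8.66 and 8.22 CPM, and its part in the Sycp2 level was not tested.

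Smc1b (chr15:85064689-85131964, minus strand), a cohesin subunit used in meiosis, was rarer. It gave 336 UMIs in 318 male nuclei (4.19 CPM) and 587 UMIs in 519 female nuclei (6.66 CPM). Granule neurons of the dentate gyrus held 4.53 CPM (3.71 to 5.48) in the male library and 10.5 (8.64 to 12.6) in the female, and these intervals do not overlap. Male microglia had 0 UMIs, which allows up to 2.31 CPM, and female microglia 5 UMIs. Among small classes, Cajal-Retzius cells, singled out after their values were seen, had 3 UMIs in 32 male nuclei (41.9 CPM, 8.65 to 123) and 6 UMIs in 17 female nuclei (196 CPM, 72.1 to 428), values that rest on 2 and 4 nuclei. Its paralogue in ordinary cohesin, Smc1a, was read at 29.1 and 32.4 CPM, highest in oligodendrocytes of the male library and in microglia of the female one.

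Mei4 (chr9:81863670-82206007, plus strand), a factor needed with REC114 and IHO1 for the DNA breaks of meiosis, showed the sharpest contrast between neuron classes. CA1 pyramidal neurons had 70.2 CPM (66.2 to 74.4) in the male library and 90.9 (86.3 to 95.7) in the female, and granule neurons 2.78 (2.15 to 3.54) and 2.69 (1.80 to 3.86). The ratio of these classes was 25.3 in the male library and 33.8 in the female. CA3 pyramidal neurons, neighbours of CA1 in the same cell layer, had 12.8 and 16.2 CPM.

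The log2 ratio of CA1 neurons to all other nuclei for Mei4 was 1.84 (1.73 to 1.94) in the male library and 1.96 (1.86 to 2.05) in the female. Of all genes, 0.768% were called higher in CA1. A Mei4 UMI was present in 616 of 1733 male CA1 nuclei (35.5%) and 673 of 1582 female ones (42.5%), at median depths of 8368 and 9065.5 UMIs, against 1.46% of granule neurons in either library at 5066 and 5696. Thinned to 1000 UMIs, the shares were 7.18% and 8.81% of CA1 nuclei and 0.347% and 0.351% of granule neurons. Lower calls for Mei4 were made in granule neurons, where 4.07% of all genes were called lower, in astrocytes (6.5% of genes), in oligodendrocytes (7.44%) and in microglia (7.87%).

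Other neurons lay between these ends. Among GABAergic interneurons, the cluster led by Dlx6os1, Col19a1 and Adarb2 had 54.2 and 66.6 CPM of Mei4, and the cluster led by Kcnmb2, Nxph1 and Erbb4 had 23.2 and 27.9. The 2 intervals of the first cluster, 44.1 to 65.9 and 54.8 to 80.2, lie above those of the second, 19.1 to 27.9 and 24.3 to 31.9. Subiculum or entorhinal neurons had 51.5 CPM in the male library and 29.6 in the female, a difference described below with the other library ratios. The genes whose class levels were most like those of Mei4 were Gm41414 (r 0.94), Gm5149 (r 0.94) and Ndst3 (r 0.93), out of 16051 genes with at least 200 UMIs.

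**Figure D2:**
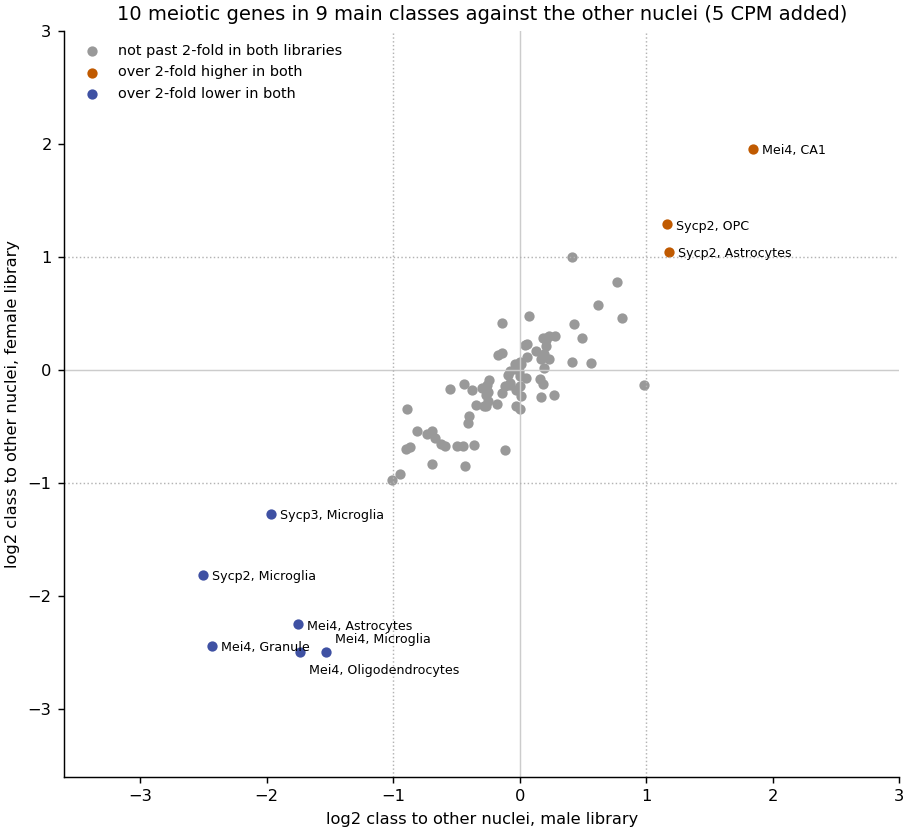
Log2 ratio of each of the 10 genes in each of the 9 main classes to all other nuclei, male library on the horizontal and female library on the vertical axis, with 5 CPM added to each side; dotted lines mark 2-fold. The 3 orange points (Mei4 in CA1, Sycp2 in oligodendrocyte precursors and astrocytes) lie past 2-fold higher in both libraries, and the 6 blue points past 2-fold lower.

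Mei1 (chr15:82069996-82126814, plus strand), also needed for meiotic DNA breaks, was read at 3.63 CPM in the male library and 2.94 in the female, in 268 and 234 nuclei. Granule and CA1 neurons stood in the reverse order of that for Mei4. Granule neurons held 7.19 CPM (6.14 to 8.36) and 7.52 (5.97 to 9.34), and CA1 neurons 0.874 (0.478 to 1.47) and 0.57 (0.261 to 1.08). Subiculum or entorhinal neurons followed granule neurons with 6.19 and 5.26 CPM. No UMI was found in 1010 male astrocytes, which allows up to 0.896 CPM, and 3 were found in 1479 female ones. The log2 ratio of granule neurons to the other nuclei was 0.77 (0.62 to 0.91) and 0.78 (0.58 to 0.98) with 5 CPM added, which understates the change of so low a gene, and 1.37 in both libraries with 1 CPM added.

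Within the subiculum or entorhinal class, Mei1 differed between clusters. The cluster led by Gm42705, Gm6260 and Fn1 had 0.876 CPM (0.181 to 2.56) in the male library and 1.79 (0.773 to 3.53) in the female, and the cluster led by Vwc2l, Sntb1 and Rai14 had 9.37 (6 to 13.9) and 7.27 (4.07 to 12). Those intervals do not overlap in either library. Another cluster, led by Gm49906, Tshz2 and Dpp10, had 9.33 CPM in 493 male nuclei and 27.7 in 49 female nuclei, the latter from 14 UMIs.

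Dmc1 (chr15:79561497-79605109, minus strand), a recombinase specific to meiosis, was read at 5.47 and 4.32 CPM, in 399 male and 340 female nuclei. Its 3 highest classes on average were all neuronal: subiculum or entorhinal neurons with 7.39 (5.74 to 9.37) and 6.25 CPM (4.54 to 8.40), GABAergic interneurons with 8.54 (6.47 to 11.1) and 4.73 (3.44 to 6.35), and CA1 neurons with 6.87 (5.65 to 8.28) and 6.02 (4.87 to 7.36). These overlap one another within each library. Microglia gave 1 UMI in each library, and oligodendrocytes 7 in 2348 male and 3 in 3590 female nuclei. Fam227a, the next protein-coding gene upstream on the same strand at 4.47 kb, was read at 22.1 and 17.7 CPM. Fam227a was also highest in subiculum or entorhinal neurons, at 29.7 and 22.9, and its part in the Dmc1 level was not tested.

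Msh4 (chr3:153857149-153906138, minus strand), which acts with MSH5 at crossovers, gave 147 UMIs in 143 male nuclei and 146 in 142 female nuclei, or 1.83 CPM (1.55 to 2.16) and 1.66 (1.40 to 1.95). Its class levels ran from 0.703 to 2.69 CPM in the male library and from 0.85 to 2.42 in the female, and the intervals of its highest class on average, subiculum or entorhinal neurons with 2.39 (1.5 to 3.62) and 2.42 (1.41 to 3.87), overlapped those of every other main class in the same library. A class pattern in Msh4 was not detectable at this depth. Rabggtb, which ends 1.15 kb upstream on the same strand, was read at 20.8 and 21.5 CPM. The mismatch repair gene Msh6, from the same family as Msh4, stood at 6.35 and 4.92 CPM.

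Dazl (chr17:50279395-50293636, minus strand), an RNA-binding protein that makes germ cells competent for meiosis, was read at 3.84 CPM (3.43 to 4.30) in the male library and 3.31 (2.94 to 3.72) in the female. Of the main classes it was highest in CA1 neurons, with 116 UMIs in 101 of 1733 male nuclei (7.25 CPM, 5.99 to 8.69) and 101 UMIs in 95 of 1582 female nuclei (6.4 CPM, 5.21 to 7.77). The unnamed cluster led by Ywhah, Dynll2 and Calm3 had 7.83 (3.58 to 14.9) and 7.58 CPM (3.46 to 14.4), from 9 UMIs in each library. GABAergic interneurons, at a like depth per nucleus, had 1.80 (0.929 to 3.14) and 1.18 (0.591 to 2.12). The log2 ratio of CA1 to the other nuclei was 0.62 (0.44 to 0.79) and 0.58 (0.40 to 0.75). Among the main classes, the levels of Dazl and Mei4 were thus both highest in CA1. CA1 and granule neurons differed far less in Dazl, for which granule neurons had 3.12 and 3.99 CPM.

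Meioc (chr11:102663716-102682237, plus strand), whose protein works with YTHDC2 to stabilise the meiotic state, was the rarest, with 73 male and 130 female UMIs (0.911 and 1.47 CPM). CA1 neurons had the highest level in both libraries, 1.62 (1.06 to 2.38) and 2.28 CPM (1.60 to 3.16). No UMI was found in 2348 male oligodendrocytes, which allows up to 0.703 CPM. Its partner Ythdc2, a helicase with an m6A-binding domain encoded on chromosome 18, was in contrast the most frequent of the 10, with 78.1 CPM in 4334 male nuclei (31.0%) and 66.5 CPM in 3869 female nuclei (22.6%).

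Ythdc2 was also the most even across classes. Granule neurons had 87.2 (83.4 to 91.0) and 79.6 CPM (74.4 to 85.1), and astrocytes 40.3 (33.8 to 47.7) and 40.0 (34.7 to 45.8). All 5 neuron classes lay between 70.2 and 87.7 CPM in the male library and between 55.1 and 79.6 in the female. Ythdc1, a nuclear m6A reader of the same family that is used in all tissues, was read at 98.3 and 107 CPM. Across classes its order differed from that of Ythdc2, since microglia were its highest class at 137 and 154 CPM.

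Between the libraries, none of the 10 genes was past 1.5-fold over all kept nuclei with 5 CPM added to each side. Of all genes, 2.57% were, so with 10 genes this count is not read as particular to the meiotic genes. For low genes the added 5 CPM understates the ratio of the levels themselves. These were 4.19 and 6.66 CPM for Smc1b and 0.911 and 1.47 CPM for Meioc. The log2 ratio of male to female was positive for 6 genes and negative for 4, with a median of 0.0637 against 0.0102 over all genes. Sycp2 had a ratio of -0.40 (-0.45 to -0.35) and Smc1b one of -0.34 (-0.44 to -0.24), both higher in the female library. With 1 CPM added in place of 5, Smc1b had -0.56, Sycp2 -0.43 and Meioc -0.37. Since the libraries hold the classes in different shares, such as 28.9% granule neurons in the male library and 10.0% in the female, the same ratio was taken within each class.

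Smc1b and Meioc were higher in the female library in all 9 main classes. The interval lay below 0 in 3 of these classes for Smc1b and in 0 for Meioc. In granule neurons the log2 ratio of Smc1b was -0.70 (-0.92 to -0.47) and in CA1 neurons -0.45 (-0.67 to -0.22). The larger granule cluster, with 2867 male and 1537 female nuclei, had 4.73 CPM (3.71 to 5.95) and 11.2 (9.20 to 13.5), so the difference was present within 1 cluster. In the smaller one, with 1173 male and 177 female nuclei, the levels were 4.15 (2.85 to 5.82) and 3.80 (1.04 to 9.73), the latter from 4 UMIs. Sycp2 had an interval below 0 in 5 classes, among them oligodendrocyte precursors at -0.53 (-0.77 to -0.28), while in the 4 classes of CA1, CA3, GABAergic and subiculum or entorhinal neurons the intervals reached 0. For oligodendrocytes, where Sycp2 had -0.57 (-0.83 to -0.31), different clusters held most nuclei of each library: 2237 of the 2348 male nuclei fell in one and 3390 of the 3590 female nuclei in the other.

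Ythdc2 was higher in the male library in 9 of 9 classes and had an interval above 0 in 5, at 0.32 (0.20 to 0.44) in CA1 neurons and 0.25 (0.13 to 0.38) in CA3 neurons. Sycp3 had an interval above 0 in CA3 neurons at 0.59 (0.41 to 0.77), in granule neurons at 0.41 (0.21 to 0.61) and in GABAergic interneurons at 0.37 (0.16 to 0.59). Over all nuclei the axis partners had ratios of opposite sign, -0.40 for Sycp2 and 0.18 (0.10 to 0.25) for Sycp3. Within classes the signs matched in some. Both were negative in oligodendrocyte precursors, at -0.53 and -0.39, and in microglia, at -1.08 and -0.52. In CA3 neurons both were positive, at 0.02 and 0.59. The signs were opposite in the other main classes. The median ratio of all genes within the main classes ran from 0.06 to 0.11, so small positive values of single genes lie near that of genes at large.

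Mei4 had ratios of opposite sign in different neurons. It was -0.35 (-0.46 to -0.24) in CA1 neurons and 0.71 (0.50 to 0.92) in subiculum or entorhinal neurons. That class consists of 3 clusters, which the libraries hold in different shares: the cluster led by Gm49906 had 493 male and 49 female nuclei. Mei4 stood at 60.6 and 9.90 CPM in it, at 51.1 and 36.1 in the cluster led by Gm42705, and at 40.6 and 20.4 in the cluster led by Vwc2l, so the male level was the higher in each of the 3. Meanwhile the unnamed neuronal cluster led by 6330411D24Rik, Ebf1 and Ebf2, with 44 male and 745 female nuclei, had 52.0 and 50.4 CPM.

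**Figure D3:**
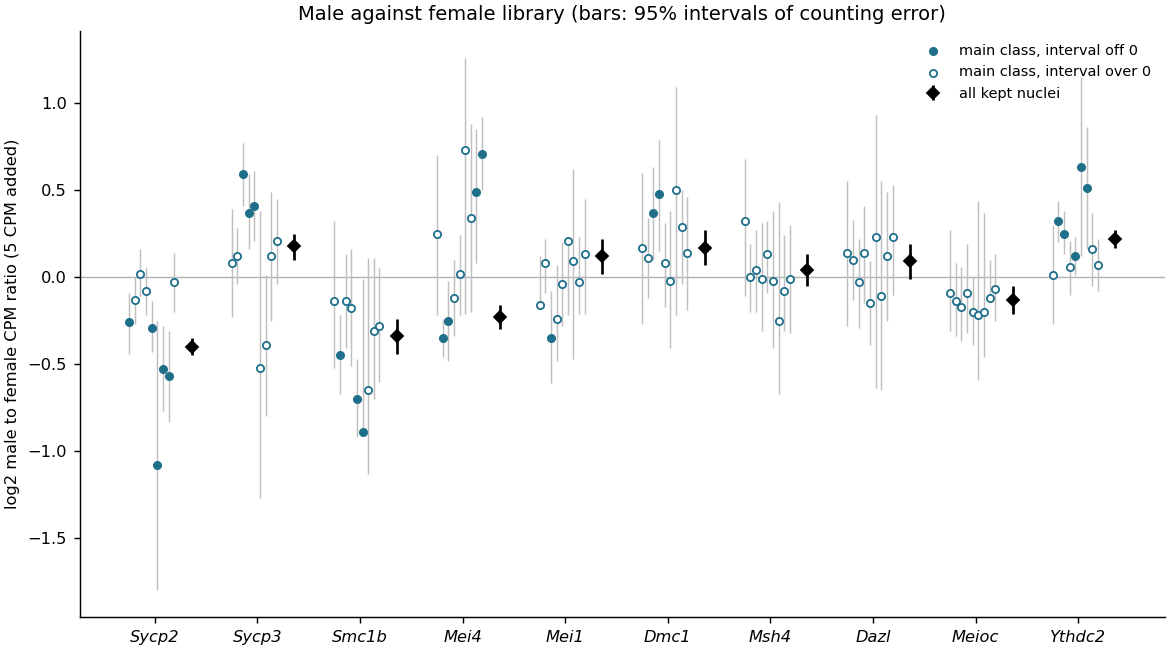
Log2 ratio of male to female CPM for each gene, with 5 CPM added to each side: small circles are the 9 main classes (filled where the 95% counting interval lies off 0) and black diamonds all kept nuclei. Smc1b and Meioc lie below 0 in 9 of 9 classes and Ythdc2 above 0 in 9 of 9. Mei4 ranges from -0.35 in CA1 neurons to 0.73 in microglia, where it rests on 8 male and 2 female UMIs.

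How far the genes were read in the same nuclei was counted next. At least 2 of the 10 were present in 3111 male nuclei (22.2%) and 3189 female nuclei (18.7%), and no nucleus held more than 7. With nuclei thinned to 1000 UMIs the counts were 200 of 13622 (1.47%) and 179 of 15904 (1.13%), with at most 3 genes in a nucleus. At least 5 genes were present in 40 male and 110 female nuclei, whose median depths of 19467 and 31574.5 UMIs were well above those of all kept nuclei. Of these, 38 of 40 and 83 of 110 were in named neuron classes. At least 2 of the 6 genes below 10 CPM were present in 95 male (0.679%) and 150 female nuclei (0.878%). Each of the 6 alone was present in 0.508% to 2.85% of male and 0.72% to 3.04% of female nuclei. Whether they met more or less often than these shares imply was not tested.

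**Figure D4:**
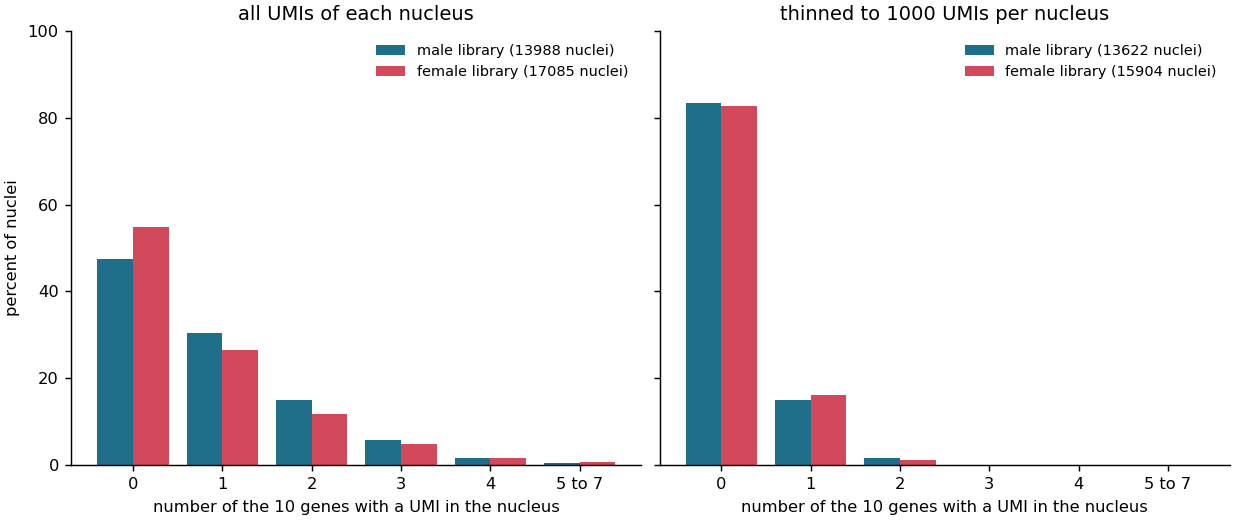
Percent of nuclei (vertical axis, from 0) by the number of the 10 genes with a UMI in the nucleus (horizontal axis), male library in blue and female in red, with all UMIs on the left and thinned to 1000 UMIs per nucleus on the right. At least 1 gene is present in 52.6% and 45.2% of nuclei unthinned, and in 16.5% and 17.2% thinned.

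Germ cell markers were checked in the same nuclei. The 12 listed markers summed to 7.23 CPM in the male library and 7.81 in the female, and 10 of 12 were under 1 CPM in each. The exceptions were Ddx4, a germline RNA helicase, at 3.82 and 3.83 CPM, and Gdf9, an oocyte growth factor, at 1.19 and 1.60. Dppa3 and Sohlh1 had no UMI in either library. Over all kept nuclei, 8 male and 21 female ones held 2 or more of these markers, and none held 3 or more. In the 40 and 110 nuclei with at least 5 of the meiotic genes, Ddx4 gave 4 and 21 UMIs. Prm1 gave 1 and 5 and Gdf9 1 and 1, and no other marker gave more than 2. These counts were not scaled to depth, and the median depths of these nuclei were 19467 and 31574.5 UMIs. Over all kept nuclei the medians were 4358.5 and 2676.

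Of 43 other genes of the meiotic programme, 24 were read at 1 CPM or more in both libraries and 15 were below 1 CPM in both. By role, 5 of 7 break formation genes, 4 of 6 central region genes, 4 of 6 telomere attachment genes, 5 of 10 crossover genes, 3 of 6 axis and cohesin genes, 2 of 6 strand exchange genes and 1 of 2 entry genes reached 1 CPM in both. Among the 10 genes, 9 did, Meioc being the exception in the male library. The share of all genes that reached 1 CPM in both libraries is not given here. By mean CPM, 50.3% of all genes stood at or below Meioc, so these counts are not read as particular to meiotic genes. The median level was 1.37 CPM for the 43 and 5.16 for the 10, beside 1.14 for all genes in the tables. Since the 10 were chosen as genes read in these nuclei, their higher median is a description and no comparison with the 43. The 5 highest were Sun1, a nuclear envelope protein that most cells use, at 77.1 and 66.6 CPM, 4930447C04Rik (Six6os1), a central element gene of the synaptonemal complex, at 31.3 and 40.6, the mismatch repair gene Mlh3 at 26.4 and 27.7, the helicase gene Hfm1 at 20 and 18.7, and Rec114, which encodes the partner of MEI4, at 19.6 and 13.3. 4930447C04Rik was highest in CA3 neurons, at 87.4 and 87.6 CPM.

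**Figure D5:**
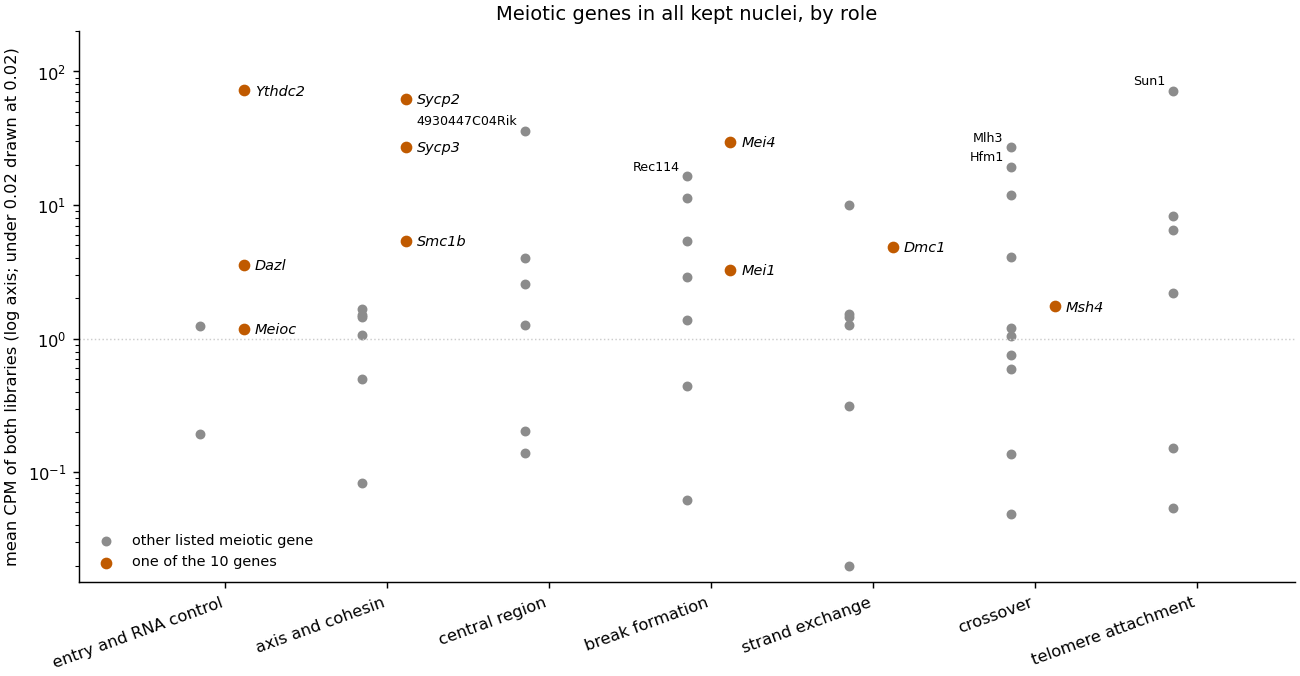
Mean CPM of both libraries over all kept nuclei (log axis) for the 10 genes (orange) and the 43 other meiotic genes (grey), set out by role; a gene under 0.02 CPM is drawn at 0.02 and the dotted line marks 1 CPM. The 10 genes run from Meioc near 1 CPM to Ythdc2 above 70 CPM, and the 5 highest of the other genes are named.

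Likeness of class levels to other genes was measured over the same 18 points. Sycp2 was most like 1700027H10Rik (r 0.92) and Eva1c (r 0.90), and Sycp3 most like Grid2ip (r 0.94), which was also among the 3 nearest to Sycp2. Mei1 was nearest to Slc16a11 and Pcsk5 (r 0.91 each), Ythdc2 to Ypel4 (r 0.92), Dmc1 to Spaca6 (r 0.94) and Smc1b to Polr3a (r 0.89). For Dazl, Msh4 and Meioc, which have few UMIs, the highest values were 0.81, 0.89 and 0.82.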

How the data were processed

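Droplet capture used 3' v3.1 reagents and aimed at 10000 nuclei for each sample, per the labels' protocols. For each barcode, the authors deposited unnormalized UMI counts of every gene; the file headers name Cell Ranger 7.0.1, and bcl2fastq 2.20.0.422 and mm10 are named in the submitters' processing notes. Not given in the sources used here are the annotation release, the treatment of introns and the barcode calling rule.

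Barcodes passed with 500 or more genes and no more than 5% mitochondrial UMIs (16034 male, 19251 female). Scrublet in scanpy 1.11.5 scored doublets at an expected rate of 8%; its own threshold called 1534 male and 0 female nuclei, so nuclei scored above a threshold at the top 8% were removed in both libraries (1241 and 1445 nuclei, or 7.74% and 7.51% of those passed), with 5 of 33 clusters that had over 40% called. Clustering used 3000 variable genes, without the meiotic genes, Stra8, sex-linked and mitochondrial genes, 40 components, 15 neighbours and Leiden resolution 1. Naming went by the mean fold of a class's 4 best markers, and 3 markers had to exceed 2-fold at 20 CPM. The class also needed more markers among the 20 leading genes of the cluster than any other class. A cluster stayed unnamed where another class had more markers among the 10 leading genes. The same held for a cluster of low depth without a marker of its class among those 10.

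UMIs were summed per library and class and given as CPM. Intervals at 95% are exact Poisson for CPM, exact Clopper-Pearson for shares and exact conditional binomial for ratios; a count of 0 was given the limit of 3 counts. Named genes are the 10 genes and Stra8, their paralogues, the 5 highest of a list of other meiotic genes, and for each of the 10 the genes most alike in class levels; neighbouring genes and germ markers named beside a result were added to these. Some genes that this rule names are not reported here. The genes, lists and rules were chosen with earlier results of these data known. The ratio calculation was checked on simulated data.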

Additional observations from a re-analysis of the deposited data

Results flagged for a closer look

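The male to female ratio of Mei4 took opposite signs in 2 neuron classes, with intervals of counting error that lie on either side of 0. Its log2 ratio was 0.71 in subiculum or entorhinal neurons and -0.35 in CA1 pyramidal neurons. The difference between these ratios was not tested, since each group is 1 library, and the clusters that make up the subiculum or entorhinal class are held in different shares by the libraries.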

How the results depend on the processing

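No paired analysis was possible because each group is 1 library, and for the same reason no replicate could be left out. The count of genes called higher in a main class, 2 in the report, was 1 with doublets kept (Mei4) and 4 with 1 CPM added in place of 5 (Sycp2, Mei4, Mei1 and Dazl). The share of all genes called higher was 24.8% in the report, 18.5% with doublets kept and 35.9% with 1 CPM added. The count called lower, 3 in the report, was 1 and 5 under the same settings; it was recomputed as a choice made after seeing the data. The number of nuclei with at least 2 of the genes was 200 male and 179 female after thinning to 1000 UMIs, which lowers it by construction. The other 46 of 52 recomputed counts stayed within 1.5 times of the reported value, and no direction reversed. Of single values, 118 of 140 CPM and 79 of 90 ratios between libraries stayed within the counting interval of the reported value. So did 146 of 180 ratios of a class to the other nuclei. These totals pool the settings. With nuclei thinned to 1000 UMIs, 13 CPM moved out of the interval and 7 stayed. In that setting 13 class ratios moved and 7 stayed, and 5 ratios between libraries moved and 5 stayed. With 1 CPM added in place of 5, 9 class ratios moved and 11 stayed, and 4 ratios between libraries moved and 6 stayed. Leaving out the 2 kept clusters with over 30% called doublets, or all unnamed clusters, was chosen after seeing the data and changed no count by over 1.5 times. Msh4 and Meioc, with 293 and 203 UMIs over both libraries, are the most limited by depth of the 10 genes.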
